A study of Mus musculus with 12 samples.

Results

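The genes described here are the cytokines, receptors and feedback inhibitor of the interleukin-6 (IL-6) family: the ligands Il6, Lif, Il11 and Clcf1, the receptor chains Il6st (gp130), Lifr, Osmr and Il6ra, and the inhibitor Socs3. These 9 members were found by matching their symbols to the Ensembl identifiers of the 55487 genes counted, and all 9 had a row. Of these, 8 passed the filter on low counts and were among the 11314 protein-coding genes tested, while Il11 did not pass.

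The study used mesenchymal stromal cells (MSCs), primary adherent cells grown from the bone marrow of wild-type C57BL/6 mice. Per the study's methods the donors were female and aged 6 to 8 weeks, and the cells were stored at passage 9 or 10. There were 3 groups of 4 samples. Control MSCs were untreated, A1-treated MSCs received 50 µM A1 for 6 h, and A1 + OVA-treated MSCs received 50 µM A1 together with 1 mg/mL ovalbumin (OVA, the main protein of chicken egg white) for 6 h. A1 is a variant of Accum, a bile acid coupled to a nuclear localization peptide that disrupts endosomal membranes, and the question asked of these samples was how A1, with or without an antigen, changes the transcriptome of MSCs. All groups were grown in the same basal medium with fetal bovine serum and antibiotics, but the treatment label of the A1 + OVA medium also names insulin. The data used here hold no group with OVA alone, so an effect of OVA by itself, or of insulin, cannot be told apart from that of the combination. The labels do not say whether the 4 samples of a group came from separate animals or cultures, so the p-values measure the spread between these samples, which may be technical.

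Nearly all IL-6 family ligands, including the 4 described here, signal through gp130, a receptor chain made by nearly all cell types. IL-6 and IL-11 first bind their own receptor chains and then bring gp130 molecules together, whereas leukemia inhibitory factor (LIF) brings gp130 together with the LIF receptor. Cardiotrophin-like cytokine (CLCF1) binds the ciliary neurotrophic factor receptor first and then gp130 and the LIF receptor, and oncostatin M uses gp130 with the OSM receptor. The receptor complexes activate JAK kinases and STAT transcription factors, mainly STAT3, and STAT3 in turn induces SOCS3, which binds gp130 and shuts the signal off. Bone marrow stromal cells are known producers of IL-6 and LIF, which act on blood progenitors and on bone cells.

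The DNA before the RefSeq transcription start is shown for Il6 and Lif, the members with the largest log2 fold changes with A1, which went in opposite directions, and for Socs3, the STAT3-induced inhibitor. The sequences are from RefSeq on GRCm38.p6, in which 8 of the 9 members had a start. Clcf1 had none. In each line the bases run 5′ to 3′ on the strand of the gene, and capitals mark matches to the motifs searched on both strands: STAT (TTCNNNGAA), AP-1 (TGANTCA), the core of the CREB motif (TGACG), C/EBP (TTGCNNAA) and kappaB. The Il6 stretch lies at chr5:30012864-30013113 on the plus strand, the Lif stretch at chr11:4257318-4257556 on the plus strand and the Socs3 stretch at chr11:117969452-117969616 on the minus strand, and the Lif and Socs3 stretches stop where an exon of the GENCODE M21 annotation begins. The Socs3 stretch lies inside the gene as GENCODE M21 annotates it, so it is downstream of the 5′ end in that annotation.
Il6: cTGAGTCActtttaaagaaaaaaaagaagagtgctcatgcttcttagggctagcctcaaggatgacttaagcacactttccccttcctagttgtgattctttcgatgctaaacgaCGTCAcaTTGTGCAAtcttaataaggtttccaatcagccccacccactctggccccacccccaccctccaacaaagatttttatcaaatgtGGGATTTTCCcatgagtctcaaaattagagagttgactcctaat
Lif: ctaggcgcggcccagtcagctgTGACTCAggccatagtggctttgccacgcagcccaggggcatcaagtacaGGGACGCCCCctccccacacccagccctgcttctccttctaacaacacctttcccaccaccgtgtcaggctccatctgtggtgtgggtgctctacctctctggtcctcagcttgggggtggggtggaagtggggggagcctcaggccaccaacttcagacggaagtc
Socs3: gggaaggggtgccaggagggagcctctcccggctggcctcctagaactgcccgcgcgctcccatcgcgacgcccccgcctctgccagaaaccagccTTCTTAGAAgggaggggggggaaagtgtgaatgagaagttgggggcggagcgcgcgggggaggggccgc

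Counting back from the RefSeq start, at which the base before it is -1, the Il6 window held an AP-1 match at -249 to -243, a CREB core at -135 to -131, a C/EBP match at -128 to -121 and a kappaB match at -44 to -35. Lif held an AP-1 match at -228 to -222 and a kappaB match at -178 to -169, and Socs3 a STAT match at -154 to -146. No 2 of these matches overlapped. Of the other members, the second Il11 start had an AP-1 match at -98 to -92 and Il6ra a CREB core at -236 to -232, while the 250 bases before the starts of Osmr, Lifr and Il6st held none of the 5 motifs. Among all 32851 RefSeq starts, a window of this length held a STAT match in 7.02%, an AP-1 match in 6.75%, a CREB core in 17.8%, a C/EBP match in 9.56% and a kappaB match in 7.25%. The matches describe the letters of the sequence and are not measurements of binding.

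Each library had between 13702348 and 16881995 counts, and 3 counts, taken as the smallest signal, correspond to 0.177 to 0.229 CPM (counts scaled to the size of the library) depending on the library. The mesenchymal genes Col1a1, Pdgfrb and Cxcl12 were abundant, with mean levels of 3335, 389 and 3910 CPM in control MSCs, while Nt5e stood at 0.54 CPM, Lepr had at most 16 counts, and Thy1 had at most 3 counts in all libraries but control replicate 2, which had 17. Of 27 markers of leukocytes, endothelial and erythroid cells, 17 had at most 3 counts in every library and 9 had 0. The pan-leukocyte marker Ptprc had at most 4 counts and the macrophage marker Adgre1 at most 2. The 7 macrophage markers summed to 3.14 to 3.96 CPM in control, 4.35 to 5.27 CPM in A1-treated and 3.80 to 5.30 CPM in A1 + OVA-treated MSCs, with 3 of the 7 at or under 3 counts in every control library. Among them Mrc1 rose from 1.48 ± 0.20 to 3.01 ± 0.44 CPM with A1 (SD, n = 4). With A1 + OVA it was at 1.94 ± 0.35 CPM, not called against control (edgeR adjusted p = 0.0983). In control and A1-treated MSCs, Cd68 stood at 1.52 ± 0.28 and 1.41 ± 0.24 CPM. Lyz2, with at most 7 counts, stood at 0.32 ± 0.14 and 0.11 ± 0.07 CPM. The 11 mesenchymal markers summed to 8153 to 8558 CPM in control, 5667 to 6053 CPM in A1-treated and 5789 to 6248 CPM in A1 + OVA-treated MSCs. By the test and threshold given below, 4 of the 9 tested markers were lower and 1 higher with A1, and 5 lower and 1 higher with A1 + OVA. Over all tested genes 31.1% were lower and 31.7% higher with A1, and 27.9% and 29.7% with A1 + OVA. The markers did not all move together. Cxcl12 fell from 3910 ± 130.0 to 1514 ± 64 CPM with A1 and 1692 ± 57 CPM with A1 + OVA. Cd44 rose from 175 ± 6.5 to 458 ± 14 and 402 ± 16 CPM, and Col1a1 stood at 3335 ± 289, 3246 ± 238 and 3297 ± 189 CPM. The part of these differences in the results below was not tested.

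Every tested member of the family was called higher or lower in both treatments. With A1, Lif, Clcf1, Osmr and Socs3 rose and Il6, Lifr, Il6st and Il6ra fell, that is 4 higher and 4 lower of 8. With A1 + OVA the same 4 rose and the same 4 fell, but the Il6 call was lost in 3 of 19 alternative settings, DESeq2 among them. Tests were edgeR's quasi-likelihood tests with Benjamini-Hochberg adjustment over all tested genes, and a call needs an adjusted p under 0.05. By this rule 31.7% of all tested genes were higher and 31.1% lower with A1, and 29.7% were higher and 27.9% lower with A1 + OVA, so calls were common among all genes as well. When a change of 0.5 or more on the log2 scale was also required, Il6, Lif, Clcf1 and Il6st remained in each treatment, 4 of 8 members against 21% of all tested genes with A1 and 17.7% with A1 + OVA. The members were chosen with earlier results of these data known, so nothing particular to the family is read from these counts. Between the treatments, Lifr was higher with A1 + OVA than with A1 and no member was lower, against 6.05% of all tested genes higher and 6.81% lower, and no member passed with a log2 fold change of at least 0.5, against 1.20% of all tested genes. At an unadjusted p under 0.05 edgeR put 3 members higher with A1 + OVA than with A1 and 0 lower, and DESeq2 put 1 higher and 0 lower. The share of all tested genes at the unadjusted threshold was not computed, so nothing about the members is read from these counts. DESeq2 also called 1 higher and 0 lower at an adjusted p under 0.05. The median log2 fold change of the 8 members was -0.0034 with A1 and 0.014 with A1 + OVA, close to the medians over all tested genes of -0.0017 and 0.0036. The 4 A1 samples lay wholly above or below the 4 control samples in all 8 tested members and in 54.4% of all tested genes, and the A1 + OVA samples in all 8 and in 49.4%. Between the treatments the samples of Il6 and Lifr did not overlap, against 18.1% of all tested genes. Both treatments were compared with the same 4 control samples. In RNA from whole cultures, fewer cells that express a gene and less RNA per cell cannot be told apart.

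**Figure D1:**
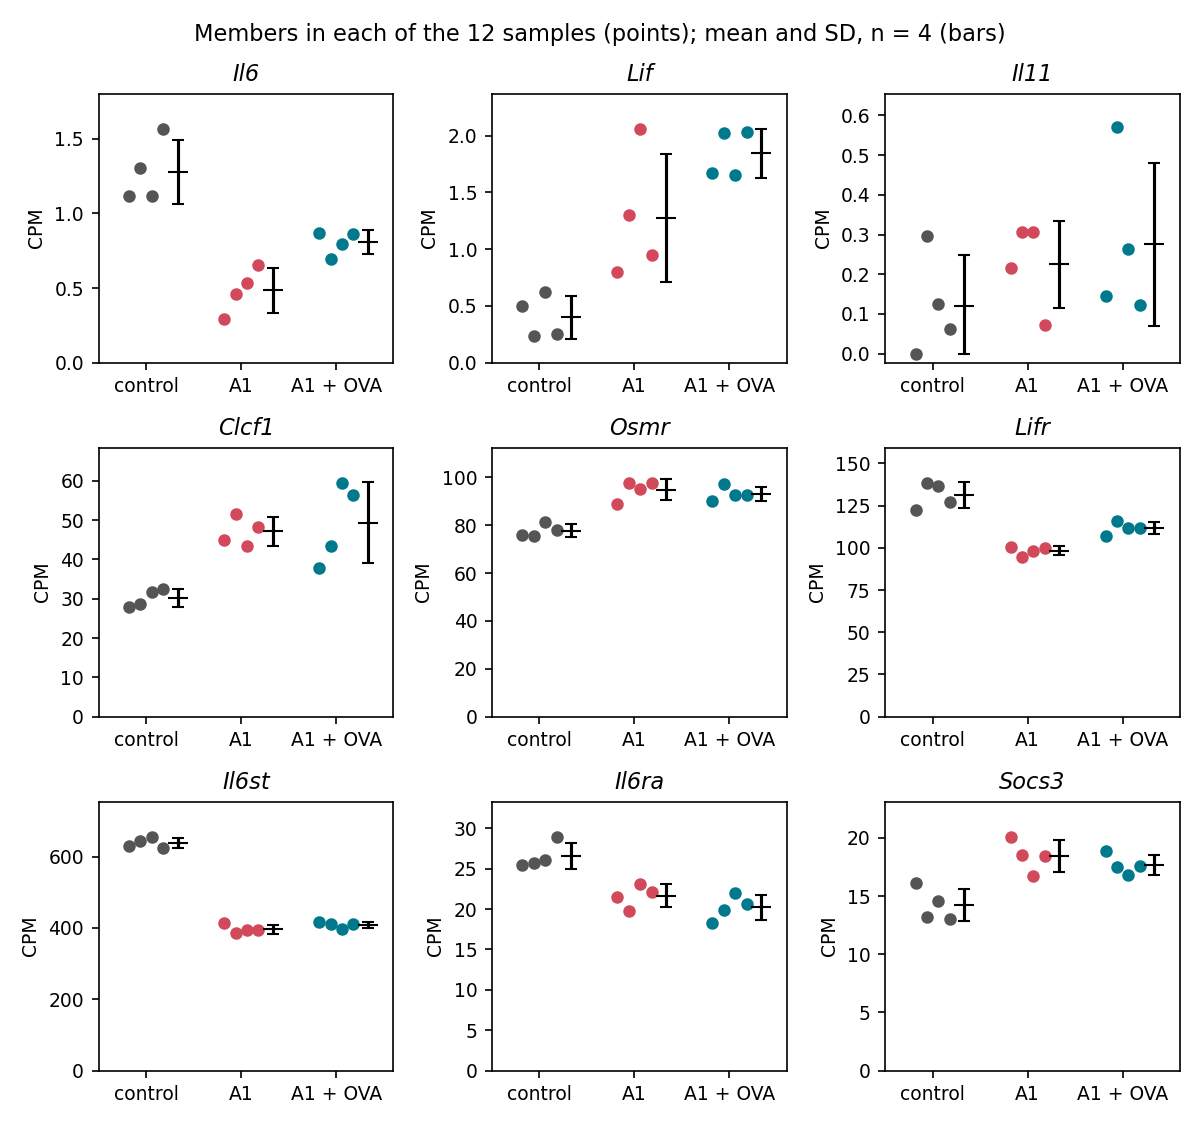
CPM (y axis) of each member in the 4 control, 4 A1-treated and 4 A1 + OVA-treated samples (x axis), 1 point a sample, with the mean and SD at the right of each group. For every member except Il11 the points of both treated groups lie wholly above or wholly below the control points, as they do for 54.4% of all tested genes with A1 and 49.4% with A1 + OVA.

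Among the ligands, Il6 RNA was scarce and fell further. Il6 (ENSMUSG00000025746, chr5:30013114-30019981, plus strand) had 18, 22, 18 and 25 counts in control replicates 1 to 4, or 1.11, 1.30, 1.11 and 1.57 CPM. A1-treated replicates had 4, 6, 7 and 9 counts, or 0.289, 0.458, 0.534 and 0.654 CPM, and A1 + OVA-treated replicates had 12, 11, 12 and 14 counts, or 0.870, 0.696, 0.792 and 0.863 CPM. All A1 samples were below all A1 + OVA samples, and these in turn below all control samples. The log2 fold change with A1 was -1.38 (SE 0.27), which is 0.384 times the control level (edgeR adjusted p = 0.000144), and with A1 + OVA it was -0.66 (SE 0.23, adjusted p = 0.0192). The second call was lost with DESeq2 (adjusted p = 0.0856), without A1 + OVA replicate 2 (0.0572) and without control replicate 4 (0.0828), and kept in 16 of 19 alternatives. Although the ranges of A1 and A1 + OVA samples did not overlap, the difference between them of 0.72 on the log2 scale (SE 0.30, 95% interval 0.09 to 1.35) did not pass the adjustment (edgeR adjusted p = 0.138). For secreted IL-6 protein the study reports the other direction, an increase with A1 in a Luminex assay. That assay used serum-free supernatant collected over a longer time than the RNA, so the 2 measures are not alike.

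Lif, which encodes a cytokine that keeps stem cells from differentiating and acts on bone and blood, had the largest log2 fold changes of the tested members. Lif (ENSMUSG00000034394, chr11:4257557-4272514, plus strand) had 8, 4, 10 and 4 counts in control replicates, or 0.495, 0.236, 0.619 and 0.251 CPM. With A1 there were 11, 17, 27 and 13 counts, or 0.795, 1.30, 2.06 and 0.944 CPM, and with A1 + OVA 23, 32, 25 and 33 counts, or 1.67, 2.03, 1.65 and 2.03 CPM. Every treated sample was above every control sample, and A1 replicate 3 was the highest of all 12, so that the treated groups overlapped. Lif rose by 1.64 on the log2 scale with A1 (SE 0.35, 3.13 times control, edgeR adjusted p = 0.000389) and by 2.19 with A1 + OVA (SE 0.32, 4.57 times control, adjusted p = 4.24e-06). The difference of A1 + OVA from A1 was 0.55 (SE 0.26, 95% interval 0.02 to 1.08, edgeR adjusted p = 0.169). Without A1 replicate 3 it was 0.87 and passed (edgeR adjusted p = 0.0372).

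Clcf1, which encodes a ligand of the ciliary neurotrophic factor receptor, was the most abundant of the 4 ligands per length. Clcf1 (ENSMUSG00000040663, chr19:4214238-4223490, plus strand) was measured at 27.8, 28.7, 31.7 and 32.6 CPM in control replicates, at 45.1, 51.7, 43.4 and 48.4 CPM with A1 and at 37.9, 43.4, 59.5 and 56.3 CPM with A1 + OVA. All treated samples were above all control samples, and A1 + OVA samples spread on both sides of the A1 samples. Within A1 + OVA, replicates 1 and 2 were lower (37.9 and 43.4 CPM) and replicates 3 and 4 higher (59.5 and 56.3 CPM). Over the tested genes these were also the closer pairs of that group (2.42 and 2.56 times the counting variance, the other pairs 5.00 to 5.82). A batch within the group was not tested. The log2 fold change was 0.64 with A1 (SE 0.11, edgeR adjusted p = 2.01e-05) and 0.71 with A1 + OVA (SE 0.10, adjusted p = 5.08e-06). Between the treatments it was 0.07, with a 95% interval of -0.14 to 0.28. An exon of AC109138.7 overlaps Clcf1 on the same strand, and that gene had 0 counts in all libraries.

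Il11, whose product acts on stromal cells, bone and megakaryocytes, was near the limit of detection. Il11 (ENSMUSG00000004371, chr7:4772373-4782859, minus strand) had 0, 5, 2 and 1 counts in control, 3, 4, 4 and 1 with A1 and 2, 9, 4 and 2 with A1 + OVA. The groups overlapped, and a change was not detectable at this depth. Fitted without a filter, the log2 fold change was 0.82 with A1 (edgeR adjusted p = 0.390) and 1.13 with A1 + OVA (adjusted p = 0.177).

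**Figure D2:**
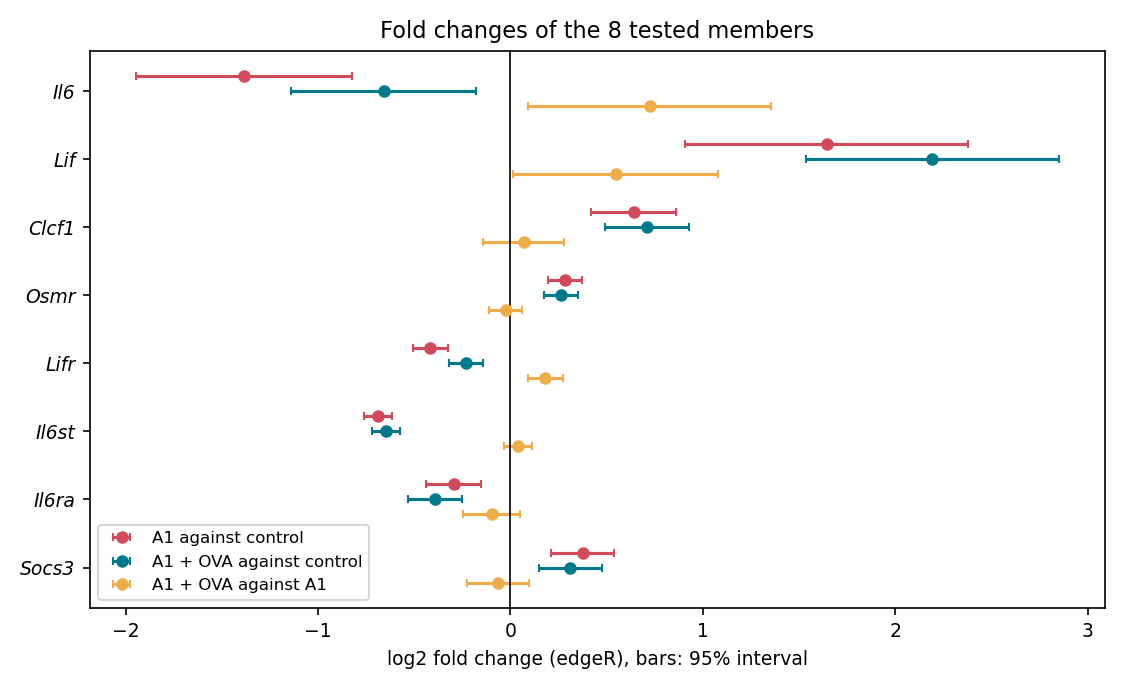
Log2 fold change (x axis, edgeR) of the 8 tested members (y axis) with 95% intervals, for A1 against control, A1 + OVA against control and A1 + OVA against A1. Intervals of both treatments against control exclude 0 for all 8, and those between the treatments exclude 0 for Il6, Lif and Lifr, of which Lifr alone passed the adjustment.

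Of the receptor chains, the shared chain gp130 fell most. Il6st (ENSMUSG00000021756, chr13:112464070-112510086, plus strand) was at 631, 644, 656 and 624 CPM in control replicates. A1-treated samples had 414, 385, 393 and 395 CPM and A1 + OVA-treated samples 416, 411, 396 and 409.8 CPM. The highest treated sample, at 416 CPM, was far below the lowest control sample, at 624 CPM, while the treated groups overlapped. Il6st fell by 0.69 on the log2 scale with A1 (SE 0.04, 0.621 times control, edgeR adjusted p = 3.18e-13) and by 0.65 with A1 + OVA (SE 0.04, 0.639 times control, adjusted p = 9.79e-13). The difference between the treatments was 0.04 (95% interval -0.03 to 0.11, edgeR adjusted p = 0.487).

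Lifr, the chain that joins gp130 in the receptors for LIF, CLCF1 and cardiotrophin 1, was the only member whose difference between the treatments passed the adjustment. Lifr (ENSMUSG00000054263, chr15:7090614-7197489, plus strand) was at 122, 139, 137 and 127 CPM in control, 100.4, 94.7, 98.4 and 100.1 CPM with A1 and 107, 116, 112 and 112 CPM with A1 + OVA. All A1 samples lay below all A1 + OVA samples, which lay below all control samples. The log2 fold change was -0.42 with A1 (SE 0.04, edgeR adjusted p = 3.39e-08) and -0.23 with A1 + OVA (SE 0.04, adjusted p = 7.82e-05). A1 + OVA exceeded A1 by 0.18 (SE 0.04, 95% interval 0.09 to 0.27, edgeR adjusted p = 0.00837), and this call was kept in all 20 alternatives, with adjusted p-values of 0.00401 to 0.0321.

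Osmr, the chain that joins gp130 to bind oncostatin M, was the only 1 of the 4 receptor chains that rose. Osmr (ENSMUSG00000022146, chr15:6813577-6874969, minus strand) was at 76.0, 75.7, 81.3 and 78.2 CPM in control, 88.7, 97.8, 95.1 and 97.8 CPM with A1 and 90.2, 97.2, 92.8 and 92.6 CPM with A1 + OVA. The treated groups overlapped each other and not the control. Osmr rose by 0.29 with A1 (SE 0.04, edgeR adjusted p = 5.62e-06) and by 0.26 with A1 + OVA (SE 0.04, adjusted p = 1.89e-05), and the difference between the treatments was -0.03 (95% interval -0.11 to 0.06). Osmr and Lifr, which lie near each other on chromosome 15 on opposite strands, thus moved in opposite directions.

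Il6ra, the chain that binds IL-6 itself, was the least abundant of the 4 receptor chains per length. Il6ra (ENSMUSG00000027947, chr3:89864059-89913196, minus strand) was at 25.4, 25.7, 26.1 and 29 CPM in control, 21.6, 19.8, 23.1 and 22.1 CPM with A1 and 18.3, 19.9, 22 and 20.6 CPM with A1 + OVA. Treated samples were all below control samples and overlapped each other. The log2 fold change was -0.29 with A1 (SE 0.07, edgeR adjusted p = 0.000862) and -0.39 with A1 + OVA (SE 0.07, adjusted p = 4.37e-05), and between the treatments -0.10 (95% interval -0.25 to 0.05). The antisense gene Gm42809 on the other strand had at most 2 counts in a library.

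Ratios of 2 chains within a sample, computed on levels per kilobase of exon, describe how the receptor makeup shifted at the RNA level. The ratio of Osmr to Lifr was 0.529 ± 0.030 (SD, n = 4) in control MSCs, 0.859 ± 0.055 with A1 and 0.743 ± 0.008 with A1 + OVA. Its range was 0.485 to 0.553 in control, 0.786 to 0.919 with A1 and 0.735 to 0.751 with A1 + OVA, so that no groups overlapped. Il6st was 8.97 ± 0.26 times Osmr in control, 4.58 ± 0.35 times with A1 and 4.78 ± 0.19 times with A1 + OVA. Against Lifr, Il6st fell from 4.74 ± 0.21 times in control to 3.92 ± 0.08 with A1 and 3.55 ± 0.16 with A1 + OVA, and against Il6ra it was 18.8 ± 1.3, 14.3 ± 0.90 and 15.8 ± 1.5 times. For Il6st over Il6ra the control samples ran from 16.8 to 19.6 and the A1 + OVA samples from 14.0 to 17.7, which overlap. These ratios are a description of genes already tested one by one.

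**Figure D3:**
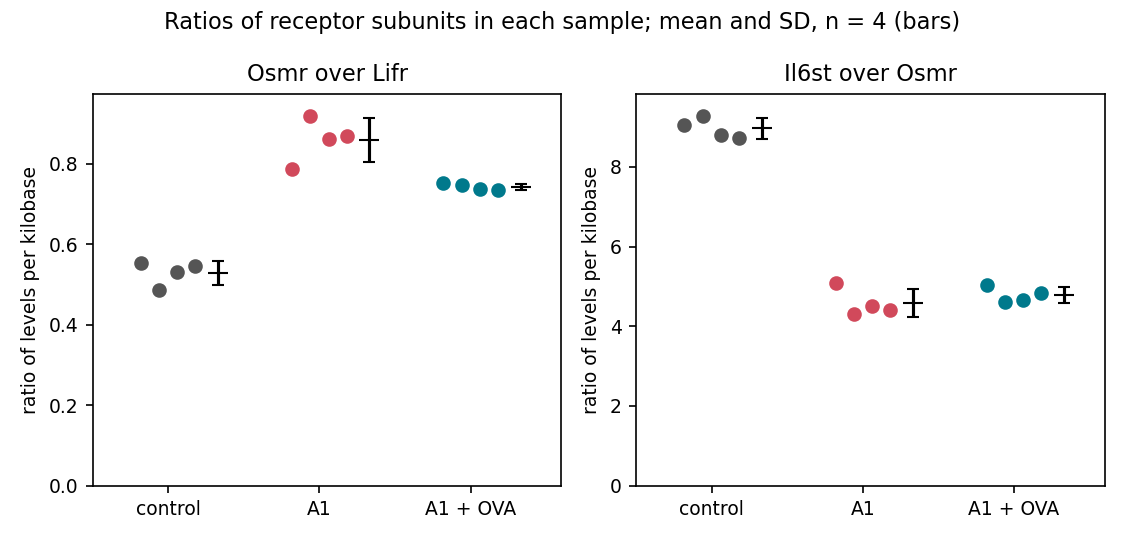
Ratio of levels per kilobase (y axis) of Osmr over Lifr and of Il6st over Osmr in each sample (points) of the 3 groups (x axis), with mean and SD of 4 samples. Osmr over Lifr rises from at most 0.553 in control to at least 0.735 in both treatments, and Il6st over Osmr falls from at least 8.72 to at most 5.09.

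Socs3, the inhibitor that binds gp130, rose in both treatments. Socs3 (ENSMUSG00000053113, chr11:117966079-117970047, minus strand) was at 16.1, 13.2, 14.5 and 13.0 CPM in control, 20.1, 18.6, 16.7 and 18.4 CPM with A1 and 18.8, 17.5, 16.8 and 17.6 CPM with A1 + OVA. Control replicate 1 at 16.1 CPM lay just under the lowest treated sample at 16.7 CPM, so the groups were separate by a narrow margin. Socs3 rose by 0.38 with A1 (SE 0.08, edgeR adjusted p = 0.000294) and by 0.31 with A1 + OVA (SE 0.08, adjusted p = 0.00169), and the treatments differed by -0.06 (95% interval -0.22 to 0.10).

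Levels of different genes were compared per kilobase of exon. In control MSCs, Il6st led with 57.5 ± 1.3 CPM per kilobase (SD, n = 4), followed by Lifr with 12.2 ± 0.72, Clcf1 with 7.94 ± 0.61, Osmr with 6.42 ± 0.21, Socs3 with 4.92 ± 0.49, Il6ra with 3.07 ± 0.19 and Il6 with 0.525 ± 0.088. Lif with 0.092 ± 0.043 and Il11 with 0.058 ± 0.061 CPM per kilobase closed the order and overlapped, while no other neighbours did. With A1, Clcf1 at 12.4 ± 0.97 CPM per kilobase stood above Lifr at 9.13 ± 0.24 without overlap, and Lif, Il6 and Il11 each overlapped the next. With A1 + OVA, Clcf1 at 13.0 ± 2.7 and Lifr at 10.4 ± 0.33 CPM per kilobase overlapped, and Lif at 0.424 ± 0.049 stood above Il6 at 0.332 ± 0.033 without overlap. The exon lengths count every annotated exon of a gene once, so a gene that uses a short transcript is given too low a level.

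**Figure D4:**
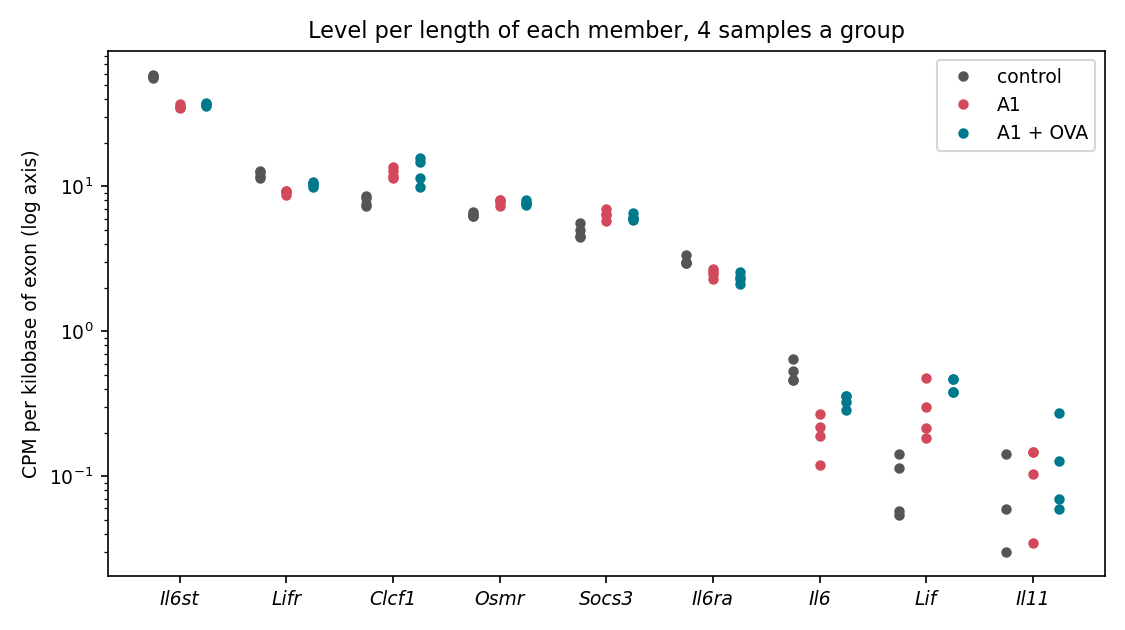
CPM per kilobase of exon on a log axis (y axis) for each member (x axis), with 1 point for each of the 4 samples of each group. A control sample with 0 Il11 counts cannot be drawn on a log axis, and Il6st stands above all other members in all groups.

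The genes whose profile over the 12 samples was closest to that of Il6 or Lif, the members that changed by 1 or more on the log2 scale, were found by the root mean square difference of log2 CPM centred on each gene's mean, among 10448 genes whose average log2 CPM was 1 or more. For Il6 they were Slc2a9 (0.178 on the log2 scale), Amigo2 (0.186) and Ccdc136 (0.219). For Lif they were Slc29a2 (0.378), Hey2 (0.385) and Sync (0.386). Their log2 fold changes with A1 and with A1 + OVA were -1.19 and -0.74 for Slc2a9, a urate transporter, and 1.95 and 1.92 for Slc29a2, a nucleoside transporter. These genes were chosen for their likeness, so their values have no test.

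The rest of the pathway was read from lists of ligands, receptors, signal transducers, inhibitors and targets. Nothing particular to a list is read from its counts, which stand beside the share of all tested genes called. Of the other ligand genes, that of oncostatin M had at most 1 count in any library and Cntf at most 8. Of 5 other receptor genes only Il11ra1 passed: it fell from 9.28 ± 1.1 CPM to 5.90 ± 0.85 with A1 and 7.07 ± 0.62 with A1 + OVA, by 0.65 and 0.39 on the log2 scale (edgeR adjusted p = 4.41e-05 and 0.00356). Il11ra2 is a near-identical copy with 0 counts here, so the split of reads between the pair is uncertain. Cntfr, the receptor chain that binds ciliary neurotrophic factor, had 0 counts in every library.

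All 10 signal transducers were tested, and 7 fell and 3 rose with A1, while with A1 + OVA 7 fell and 2 rose. Over all tested genes, 31.1% fell and 31.7% rose with A1, and 27.9% fell and 29.7% rose with A1 + OVA. Their median log2 fold change was -0.31 with A1 and -0.23 with A1 + OVA. Jak1, the kinase that gp130 depends on most, fell from 690 ± 20 CPM in control to 401 ± 6.3 with A1 and 404 ± 6.5 with A1 + OVA, by 0.78 and 0.77 on the log2 scale (edgeR adjusted p = 2.10e-14 and 2.85e-14). Stat5a fell from 48.5 ± 0.82 CPM to 29.4 ± 1.0 and 30.6 ± 0.80, by 0.72 and 0.66. Stat3, named here after its values were seen, went the other way: it was at 67.7 ± 3.3, 75.5 ± 0.82 and 74.7 ± 1.7 CPM, a rise of 0.16 with A1 and 0.14 with A1 + OVA (edgeR adjusted p = 0.00280 and 0.00591). Between the treatments, 0 of the 10 were called by edgeR's quasi-likelihood test or by DESeq2 at an adjusted p under 0.05. By edgeR only 6.05% of all tested genes were higher and 6.81% lower, so 0 of 10 is near the share over all genes. An unadjusted edgeR p under 0.05 was seen for 1 of the 10, and the share of all tested genes at that threshold was not computed.

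Of 15 further inhibitors of JAK and STAT signaling, 8 rose and 2 fell with A1, and 7 rose and 3 fell with A1 + OVA, with a median log2 fold change of 0.12 in each, against 31.7% of all tested genes higher and 31.1% lower with A1 and 29.7% and 27.9% with A1 + OVA. Socs2, which is induced by STAT5 and limits growth hormone signaling, rose most, from 18 ± 1.3 CPM to 66.7 ± 4.7 with A1 and 51.6 ± 4.1 with A1 + OVA, by 1.89 and 1.52. It was lower with A1 + OVA than with A1, by a log2 difference of -0.37 (edgeR adjusted p = 0.000401). Sh2b3, an adaptor that restrains JAK2, rose by 0.88 and 0.85, and Socs5 by 0.55 and 0.36. Ptpn6, a phosphatase of blood cells with at most 30 counts here, had a log2 fold change of -0.70 with A1 (edgeR adjusted p = 0.0886) and fell by 1.04 with A1 + OVA (adjusted p = 0.0171), a call lost without A1 + OVA replicate 2 (0.0544) or control replicate 2 (0.106).

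Of 20 genes known as STAT3 targets, 18 were tested, and Bcl3 and Icam1 were not, with at most 7 and 3 counts. With A1, 11 rose and 3 fell, and with A1 + OVA, 10 rose and 2 fell, with medians of 0.30 and 0.27, where 31.7% of all tested genes rose and 31.1% fell with A1 and 29.7% and 27.9% with A1 + OVA. Timp1, an inhibitor of matrix proteases, rose from 95.8 ± 9.2 CPM to 253 ± 4.3 with A1 and 195 ± 4.3 with A1 + OVA, by 1.40 and 1.03 on the log2 scale. Vegfa, the growth factor of blood vessels, rose by 1.13 and 1.10, Junb by 1.08 and 0.74 and Myc by 1.03 and 0.95. These genes answer to many other signals as well as STAT3. Fos fell with A1 by 1.68, from 3.47 ± 1.7 to 1.07 ± 0.42 CPM (edgeR adjusted p = 0.000569), and had a log2 fold change of -0.73 with A1 + OVA (adjusted p = 0.0512), which 7 alternatives called. Between the treatments, 6 of the 18 were lower and 1 higher with A1 + OVA, against 6.81% and 6.05% of all tested genes, and Timp1 was lower by a log2 difference of -0.38 (edgeR adjusted p = 2.04e-05).

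Genes that act on the RNA of cytokines such as Il6 were read from a list of 11. With A1, 4 rose and 4 fell, and with A1 + OVA 4 rose and 3 fell, shares near those over all tested genes (31.7% and 31.1% with A1, 29.7% and 27.9% with A1 + OVA). Zfp36l1, which speeds the decay of AU-rich messages, fell from 96.9 ± 7.2 CPM to 35.0 ± 2.5 with A1 and 41.4 ± 1.7 with A1 + OVA, by 1.47 and 1.23 (edgeR adjusted p = 4.85e-15 and 6.07e-14). Arid5a, which protects Il6 RNA from decay, rose from 2.93 ± 0.54 CPM to 6.73 ± 0.49 and 5.74 ± 0.69, by 1.20 and 0.97. Of the 4 genes of receptor shedding, 3 fell with A1, and 3 fell and 1 rose with A1 + OVA, to be read against the same shares. Adam17, the protease that releases the IL-6 receptor from the cell surface, fell by 0.61 and 0.60, from 136 ± 4.8 CPM to 89.3 ± 2.2 and 89.7 ± 2.6. Its partner Rhbdf2 fell by 0.70 with A1 and by 0.27 with A1 + OVA (edgeR adjusted p = 3.27e-06 and 0.0168), and was higher with A1 + OVA than with A1 by 0.43 (adjusted p = 0.00883). The call of Rhbdf2 with A1 + OVA was lost without A1 + OVA replicate 2 or control replicates 1 or 4 (adjusted p = 0.0572, 0.0507 and 0.0825).

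**Figure D5:**
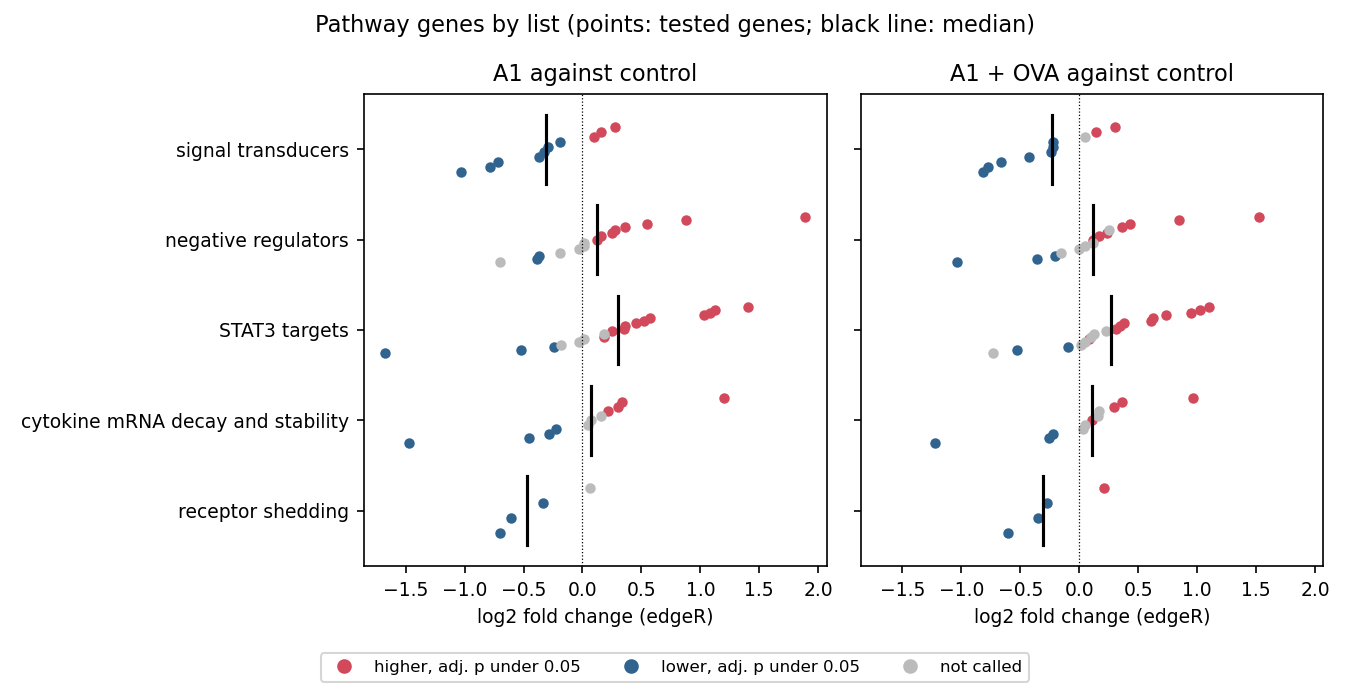
Log2 fold change (x axis, edgeR) of each tested gene of 5 pathway lists (y axis), 1 point a gene, for A1 and for A1 + OVA against control. Red and blue points have an adjusted p under 0.05, grey points do not, and black lines mark medians: -0.31 for the transducers and 0.30 for the STAT3 targets with A1.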

How the data were processed

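Polyadenylated RNA of 12 samples was sequenced from strand-specific libraries. Per the labels, the authors aligned the reads with STAR 2.7 to GRCm38 and summarized them with featureCounts 2.0, and the values deposited are raw counts per Ensembl gene, without normalization. Symbols and exon lengths came from GENCODE M21, which holds 99.5% of the identifiers. Groups and replicate numbers came from the sample titles.

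Counts of 21974 protein-coding genes were filtered with filterByExpr, leaving 11314, scaled by TMM and tested with edgeR 4.0.16 (R 4.3.3) in a single quasi-likelihood fit of the 3 groups. CPM uses the scaled library size, an SE is the log2 fold change divided by the root of F, and log2 CPM in profiles has a prior count of 2. Members and lists were chosen with earlier results of these data known. From each other list, up to 5 genes with a log2 fold change of at least 0.5 in either treatment are named, and some genes that this selects are not reported here. Alternatives were DESeq2 1.42.0 (the study's tool), other scalings and filters, all genes, only the groups compared, a replicate block and each sample left out. The fits were tested on simulated data. Replicate pairs showed 1.92 to 6.87 times the variance expected from counting and were kept as separate samples. Within A1 + OVA, replicates 1 and 2 (2.42) and replicates 3 and 4 (2.56) were closer than the other pairs (5.00 to 5.82). Control replicates 3 and 4 (1.92, other control pairs 3.81 to 6.87) and A1 replicates 2 and 4 (2.04, other A1 pairs 2.91 to 4.72) were also close. The labels do not say what these pairs share, and a batch within a group was not tested. Same-numbered samples deviated together with a mean correlation of 0.021 (-0.13 to 0.16 over 12 pairs), and were not treated as pairs.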

Additional observations from a re-analysis of the deposited data

Results flagged for a closer look

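In groups of 4 samples, the highest or lowest sample was compared with its group by Dixon's test for the 9 members and the named pathway genes, 27 genes and 81 groups in all, of which chance alone would mark about 1 in 20. No member was marked. Jak1 in control replicate 1, at 661 CPM, lay below the other control samples at 696 to 703 CPM, and it lay above all treated samples. Myc in A1 + OVA replicate 3, at 137 CPM, lay above the others of its group at 126.7 to 126.8 CPM.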

How the results depend on the processing

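Against control, the direction of all 8 tested members was the same in all alternatives that tested them, and apart from Il6 with A1 + OVA every call at an adjusted p under 0.05 was kept. That call was lost with DESeq2 (-0.67), without A1 + OVA replicate 2 (-0.59) and without control replicate 4 (-0.55). A log2 fold change of at least 0.5 as a further condition left 2 members higher and 2 lower with A1, 2 higher and 2 lower with A1 + OVA, and 0 higher with A1 + OVA than with A1. Leaving out each sample in turn, 1 to 2 members were higher with A1 + OVA than with A1: Lif passed without A1 replicate 3. The difference of Clcf1 between the treatments was never called and ranged from -0.03 to 0.17, with values under 0 without A1 + OVA replicate 3 (-0.033) or 4 (-0.00226). A minimum of 10 counts in every sample left Il6 and Lif untested. Fits with the replicate block gave the same 4 higher and 4 lower members in each treatment, and 1 higher between them, and changed no call of a member. Of the pathway genes named against control, calls of Fos, Ptpn6 and Rhbdf2 moved, and the differences of Socs2, Timp1 and Rhbdf2 between the treatments were called in all 20 alternatives. The upper-quartile scaling moved the median of all genes by at most 0.03 on the log2 scale. Il6, Lif and Il11 rest on at most 33 counts a library, which limits their precision. RNA was measured, not protein or secretion.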
